A study of Homo sapiens with 28 samples.

Results

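The 5 genes described here encode receptors for colony-stimulating factors and interleukin-3: CSF1R, CSF2RA, CSF2RB, CSF3R and IL3RA. They were taken by symbol from the 56809 symbols of the deposited gene tables, and the set was chosen by a measured value, the low CSF2RB level of several NF-kB knockouts treated with lipopolysaccharide (LPS). All 5 passed the filter on low counts, which left 18624 genes for testing. The comparison of knockouts with controls under LPS is therefore given as a description for these genes, with no test.

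The cells were U937, a human monocytic line, and polyadenylated RNA was sequenced from 28 libraries of 14 clones. Every clone was sequenced untreated and after LPS, a bacterial membrane component sensed through TLR4, at 500 ng/ml for 6 h. The control group, CTR, held 3 clones made with non-specific guide RNAs. Knockout clones were labelled as lacking 1 NF-kB subunit each: 3 clones for p65, and 2 each for p50, p52, cREL and RELB. By the labels the samples came in 3 batches (A, B and C), of which A had no CTR clone. Batch B held CTR replicate 2, and batch C held CTR replicates 1 and 3. Batch A held p65 replicate 1, and batch C held p65 replicates 2 and 3. The p50, p52, cREL and RELB knockouts had 1 clone each in A and B. Without CTR replicate 2 the batch term ties them to CTR only through the p65 clones. Without p65 replicate 1 batch C is tied to the other batches only through the CTR clones. A group is thus 2 or 3 clones of 1 cell line, and p-values cover no spread beyond these clones. The reported fit takes the 2 libraries of a clone as independent, so its p-values ignore that pairing.

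Receptors for these cytokines govern the survival, growth and maturation of myeloid cells. CSF2RB is the common beta chain, which pairs with a ligand-specific alpha chain, CSF2RA for GM-CSF or IL3RA for IL-3, and signals through the kinase JAK2 and the transcription factor STAT5. CSF3R, the G-CSF receptor, acts as a pair of identical chains through the same kinase family. CSF1R, the receptor for M-CSF and IL-34, is a tyrosine kinase of its own and is a classical marker of monocytes and macrophages.

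Total estimated counts were 12643438 to 22122428 per library. The 12 genes read as markers of this monocytic line included promyelocyte granule genes (ELANE, PRTN3, AZU1 and MPO). ELANE averaged 2205 TPM (transcript abundance scaled to library and length), LYZ 1047 TPM and CD33 124.1 TPM, whereas CD14 averaged 1.17 TPM and MPO 0.0417 TPM. CD3D, MS4A1, CLC and PF4, which mark T cells, B cells, eosinophils and platelets, were at 0 in all 28 libraries, while NKG7 (T and NK cells) averaged 339.8 TPM and TPSAB1 (mast cells) 1416 TPM. The messenger RNA of RELA, the gene of p65, was still at 43.7 TPM untreated and 52.1 TPM with LPS in p65 replicate 1, against 3.20 to 8.19 TPM in the other 4 p65 libraries. CTR libraries held 23.2 to 38.3 TPM of RELA. With LPS, REL was at 7.11 and 2.49 TPM in the cREL clones (12.5 to 14.7 in CTR), NFKB1 at 6.83 and 4.10 TPM in the p50 clones (10.3 to 14.5 in CTR) and NFKB2 at 1.63 and 1.96 TPM in the p52 clones (5.19 to 7.51 in CTR). RELB was at 11.4 and 19.3 TPM in RELB replicates 1 and 2 with LPS, against 18.4 to 26.2 TPM in CTR, so RELB replicate 2 lay within the CTR range. Untreated, the NFKB2 level of both p52 clones and the RELB level of RELB replicate 2 also lay within the CTR range. A transcript level does not show whether protein is made. Several results below are given with and without the clone labelled p65 replicate 1. Its omission also alters the batch term, since it is the only p65 clone outside batch C. In these bulk libraries fewer cells of a type and less RNA per cell cannot be told apart. The sum of the 12 markers of the line lay at 2470 to 6119 TPM in CTR with LPS and 4202 to 7885 TPM in the knockouts with LPS. Granule genes weigh heavily in this sum, with PRTN3 at 1001 TPM and AZU1 at 464 TPM on average beside ELANE. It is thus no measure of monocytic cells alone, and the part of these markers in the results was not tested.

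CSF1R lies on the minus strand at chr5:150053291-150113372, CSF3R on the minus strand at chr1:36466043-36483278 and CSF2RB on the plus strand at chr22:36913628-36940449 (GRCh38, GENCODE release 29). CSF2RA, at 1268800 to 1310381, and IL3RA, at 1336616 to 1382689, are neighbours on the plus strand in the pseudoautosomal region that X and Y share. The windows of 250 bases before annotated starts were read from RefSeq (GRCh38.p14), where CSF1R, CSF2RA, CSF3R and IL3RA matched and CSF2RB did not, with 6 windows in all. Both strands were searched for the NF-kB kappaB consensus, the PU.1 core GAGGAA and the C/EBP motif TTGCNNAA, the last 2 standing for factors that act on myeloid receptor genes. Over 35116 such windows the consensus occurred in 5.21%, GAGGAA in 23.6% and TTGCNNAA in 9.05%. The consensus was found in none of the 6 windows of those 4 genes, and GAGGAA in 3 of them. These 3 are shown because they carry that core, in capitals, and they lie at chr5:150086555-150086804 (minus strand) for CSF1R, chrX:1268564-1268813 (plus) for CSF2RA and chr1:36482914-36483163 (minus) for CSF3R.
CSF1R: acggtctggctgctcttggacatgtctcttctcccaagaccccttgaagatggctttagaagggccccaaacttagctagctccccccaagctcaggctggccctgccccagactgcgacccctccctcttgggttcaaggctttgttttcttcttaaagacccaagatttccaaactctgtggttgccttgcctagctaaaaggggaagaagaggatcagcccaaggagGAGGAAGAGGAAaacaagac
CSF2RA: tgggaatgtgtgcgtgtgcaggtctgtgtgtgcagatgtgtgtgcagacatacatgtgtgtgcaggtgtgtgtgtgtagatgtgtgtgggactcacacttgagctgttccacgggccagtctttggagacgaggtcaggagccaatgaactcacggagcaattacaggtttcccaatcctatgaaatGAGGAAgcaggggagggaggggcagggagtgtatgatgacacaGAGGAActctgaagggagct
CSF3R: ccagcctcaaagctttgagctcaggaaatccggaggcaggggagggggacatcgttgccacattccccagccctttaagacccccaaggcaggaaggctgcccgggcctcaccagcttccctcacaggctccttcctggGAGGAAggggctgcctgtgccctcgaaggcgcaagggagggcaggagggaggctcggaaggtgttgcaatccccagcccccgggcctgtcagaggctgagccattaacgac

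The core occurred in tandem in the CSF1R window, starting 20 and 14 bases before the annotated start. In the CSF2RA window it began 63 and 20 bases before the start, and in the CSF3R window 111 bases before it. TTGCNNAA occurred once in another CSF3R window, 206 bases before its start, and once in the IL3RA window, 240 bases before. A match of letters is a description of the sequence and no evidence of binding.

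Levels of different genes were compared per length, as TPM over all 28 libraries. CSF3R averaged 50.6 ± 17.7 TPM (SD, n = 28) and CSF2RA 49.1 ± 10.1 TPM, and these did not differ beyond their spread. CSF2RB averaged 16.2 ± 6.86 TPM and CSF1R 13.8 ± 6.09 TPM, again with overlapping ranges. IL3RA was lowest, at 3.13 ± 1.20 TPM, and rested on only 20 to 110 estimated counts per library, so its folds are the least precise. The order was not the same in every group: in CTR with LPS CSF2RB reached 24.3 to 32.9 TPM, overlapping CSF3R at 28.8 to 33.7 TPM, and in untreated p52 clones CSF1R (18.3 TPM) averaged more than CSF2RB (10.4 TPM). By contrast CSF3R rested on 826 to 2418 counts and CSF2RB on 487 to 1957. Values below are TMM-scaled CPM (counts scaled to library size), which compare 1 gene between libraries, unless TPM is named.

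CSF2RB was high in CTR and RELB clones treated with LPS and low in the other knockouts. With LPS the 3 CTR clones held 85.8, 101.5 and 92.2 CPM (mean 93.2 ± 7.92, SD, n = 3), and the 2 RELB clones 91.4 and 88.4 CPM. The p50 clones held 35.1 and 31.7 CPM, the p52 clones 48.2 and 41.5 CPM, the cREL clones 40.4 and 39.5 CPM, and the p65 clones 36.5, 42.6 and 37.1 CPM. All 9 p50, p52, p65 and cREL libraries thus lay below the lowest CTR library, and neither RELB library did. Counts of libraries outside the CTR range, here and below, were not made over all genes. For background, the share of all 18624 genes that passed against CTR with LPS, at an edgeR adjusted p under 0.05, was 0.993% in p65, 0.199% in cREL, 0.129% in p50, 0.0698% in p52 and 0.0483% in RELB. These shares depended on 1 clone, p65 replicate 1, the only p65 clone outside batch C. Without it, of 18463 genes tested, 74 passed in p65, 115 in cREL, 134 in p50, 239 in p52 and 141 in RELB. With it the numbers were 185, 37, 24, 13 and 9. Leaving this clone out also changes how the batch term is estimated, and the part this plays was not tested. The same 9 against 0 split was seen in TPM, with CTR at 27.6 ± 4.64 TPM and RELB at 28.9 ± 1.75 TPM.

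**Figure D1:**
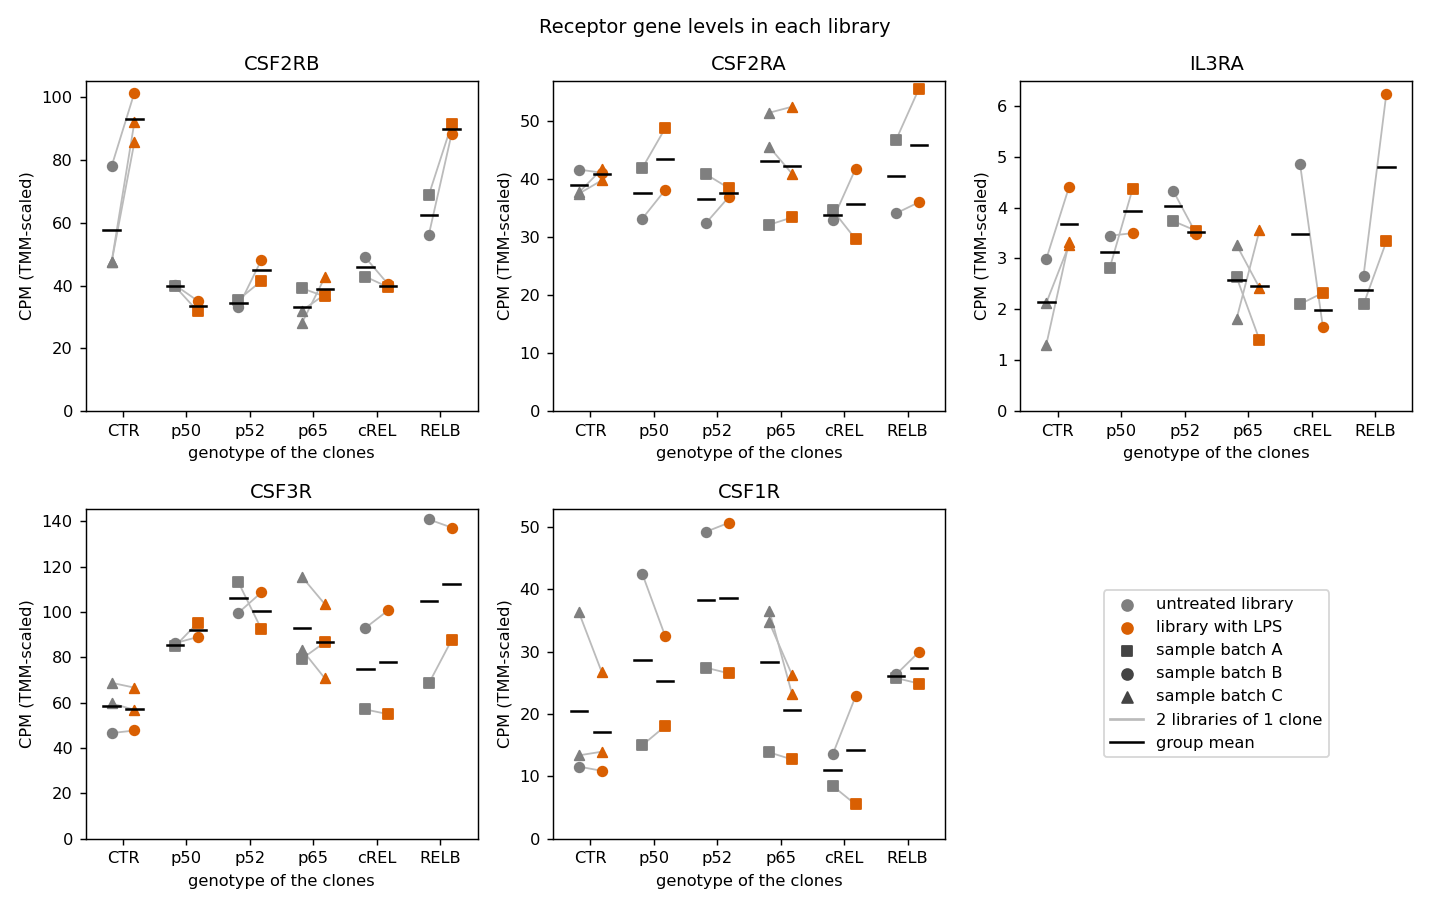
TMM-scaled CPM (vertical axis, from 0) of the 5 receptor genes in each library, by genotype of the clones, with grey for untreated and orange for LPS libraries, marker shape for sample batch, grey lines joining the 2 libraries of a clone and black bars for group means. With LPS, CSF2RB in the p50, p52, p65 and cREL clones stays at or under 48.2 CPM, and in CTR and RELB clones it is at or above 85.8 CPM.

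On the log2 scale of the fit, with batch as a term, CSF2RB under LPS differed from CTR by −1.67 in p50, −1.41 in cREL, −1.25 in p52 and −1.23 in p65, and by −0.24 in RELB. These values chose the set and are given with no test. Within batch B, where every genotype but p65 had 1 clone, the differences were −1.53 for p50, −1.33 for cREL, −1.07 for p52 and −0.20 for RELB. Within batch C the 2 p65 clones were −1.16 from the 2 CTR clones. With each clone left out in turn the p65 difference lay between −1.35 and −1.07, the latter without p65 replicate 1.

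The untreated libraries showed a smaller gap. Untreated CTR clones held 47.5, 78.0 and 47.5 CPM of CSF2RB (mean 57.7 ± 17.6, SD, n = 3), the wide spread coming from CTR replicate 2. The p50 clones held 40.2 and 39.7 CPM, the p52 clones 33.3 and 35.5 CPM, the p65 clones 39.1, 28.1 and 32.1 CPM, the cREL clones 49.0 and 42.9 CPM, and the RELB clones 68.9 and 56.2 CPM. Of the 11 untreated knockout libraries, 8 lay below the lowest CTR library and none above the highest, although in TPM the count below was 7. This too was not counted over all genes. Over all genes, edgeR passed 0.0% in p50, p52 and cREL at rest, 0.0537% in p65 and 0.0107% in RELB. Without p65 replicate 1 the numbers passing at rest were 98 in p52, 140 in RELB, 10 in cREL, 8 in p50 and 2 in p65, against 0, 2, 0, 0 and 10 with it.

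The untreated libraries played no part in choosing the set and were tested, though they come from the same clones. In 25 tests of 5 genes in 5 knockouts, edgeR's quasi-likelihood test with Benjamini-Hochberg adjustment over all genes called 0, and 11 had an unadjusted p under 0.05. Of all 18624 genes, 1077 (cREL) to 2398 (p65) per knockout had an unadjusted p under 0.05 at rest. For CSF2RB the log2 fold was −0.90 ± 0.19 in p52 (SE, adjusted p = 0.305), −0.76 ± 0.16 in p65 (adjusted p = 0.0844), −0.69 ± 0.19 in p50 (adjusted p = 0.603), −0.49 in cREL (adjusted p = 0.794) and −0.04 in RELB (adjusted p = 0.970). DESeq2 called 5 of the 25, among them CSF2RB in p65 (adjusted p = 0.00171) and in p52 (adjusted p = 0.00610), and edgeR with no filter on low counts called 6, none of them CSF2RB. Without p65 replicate 1 edgeR called 2, CSF2RB (adjusted p = 0.0279) and CSF3R (adjusted p = 0.0473), both in p52, and the p65 fold of CSF2RB was −0.73 (adjusted p = 0.158).

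A comparison of the mean of the 5 knockouts with CTR at rest, added after the values were seen, put CSF2RB at −0.58 ± 0.13 on the log2 scale (adjusted p = 0.213 by edgeR). It called 0.0322% of all genes, 6 in number, and 113 without p65 replicate 1. Without p65 replicate 1 the fold was −0.65 (adjusted p = 0.0380), and without CTR replicate 2 it was −0.29. Without that CTR clone the RELB fold was 0.28 in place of −0.04. Only p65 clones then share a batch with CTR, so these values rest on the batch term through the p65 clones. The sign of the RELB fold was not settled. Within batch B the untreated differences were −0.96 for p50, −1.22 for p52, −0.67 for cREL and −0.47 for RELB, all against CTR replicate 2, the highest CTR clone. Within batch C p65 differed by −0.66.

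**Figure D2:**
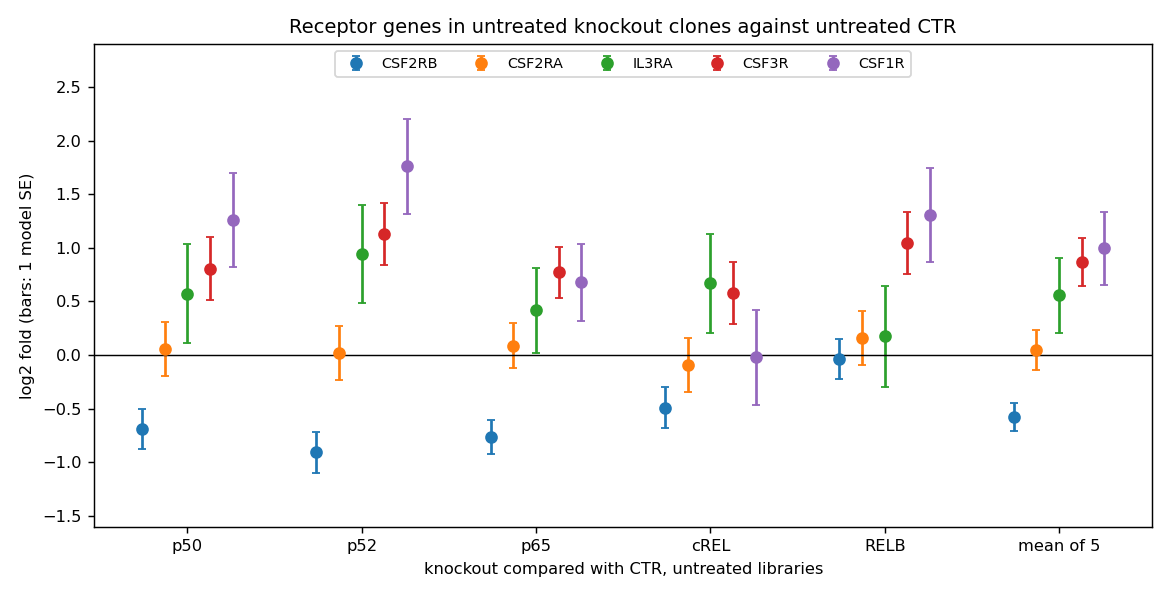
Log2 fold of each receptor gene in untreated knockout clones against untreated CTR clones (vertical axis, points with bars of 1 model SE), for each knockout and for the mean of the 5. CSF2RB is −0.49 or lower in 4 knockouts and −0.04 in RELB (0.28 without CTR replicate 2), and CSF3R lies above 0 in all 5. CSF2RA lies between −0.09 and 0.16, though without CTR replicate 2 its mean over the 5 is 0.58. Without CTR replicate 2 only p65 clones share a batch with CTR.

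The change of CSF2RB with LPS had opposite signs in different genotypes. It was higher with LPS in 3 of 3 CTR clones, 2 of 2 RELB, 2 of 2 p52 and 2 of 3 p65 clones, and lower in 2 of 2 p50 and 2 of 2 cREL clones. The fitted LPS effect was 0.72 ± 0.16 in CTR (SE), 0.52 ± 0.19 in RELB, 0.38 in p52 and 0.25 in p65, and −0.26 in p50 and −0.20 in cREL. Set against the CTR effect, the response differed by −0.98 in p50, −0.92 in cREL, −0.47 in p65, −0.34 in p52 and −0.20 in RELB. Without p65 replicate 1 the p65 effect was 0.38 and its difference from CTR −0.34. Because LPS libraries of these clones chose the set, these too are descriptions.

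CSF2RA, the GM-CSF alpha chain, had the smallest spread relative to its mean of the 5, at 39.8 ± 6.58 CPM (SD, n = 28). It held 37.4 to 41.6 CPM in untreated CTR clones and 39.7 to 41.6 CPM in CTR clones with LPS. Knockout libraries ranged from 29.6 CPM (cREL replicate 2 with LPS) to 55.5 CPM (RELB replicate 1 with LPS) and fell on both sides of CTR, 6 below and 4 above at rest and again with LPS. In TPM 1 lay below and 3 above at rest, and 1 below and 2 above with LPS. Its fitted log2 folds at rest ran from −0.09 in cREL to 0.16 in RELB. The SE was 0.21 in p65 and 0.25 in each other knockout, which limits the size of difference that could be detected. Without CTR replicate 2 they were 0.64 in p50, 0.62 in p52, 0.37 in p65, 0.50 in cREL and 0.76 in RELB, and without p65 replicate 1 they were −0.23, −0.26, 0.37, −0.38 and −0.12 in the same order. None passed in edgeR in either case. Without CTR replicate 2 only p65 clones share a batch with CTR. With an effective length offset the p50 fold turned from 0.06 to −0.19. Counts of this gene were whole in 1 of 28 libraries (tolerance 0.0015) and those of CSF2RB in all 28, so reads assigned in part may enter the CSF2RA values.

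The balance of alpha to beta chain messenger RNA differed along with CSF2RB. In TPM, CSF2RA over CSF2RB was 2.78, 2.41 and 2.76 in the untreated CTR clones and 1.58, 1.72 and 1.73 with LPS. With LPS it was 4.94 and 4.80 in p50, 3.07 and 3.95 in p52, 3.84, 4.46 and 3.86 in p65, 3.799 and 3.09 in cREL, and 2.71 and 1.65 in RELB. All 9 libraries of the first 4 knockouts exceeded every CTR and RELB library with LPS. No such count was made for other pairs of genes. The ratio shares the CSF2RB values that chose the set and is given with no test.

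**Figure D3:**
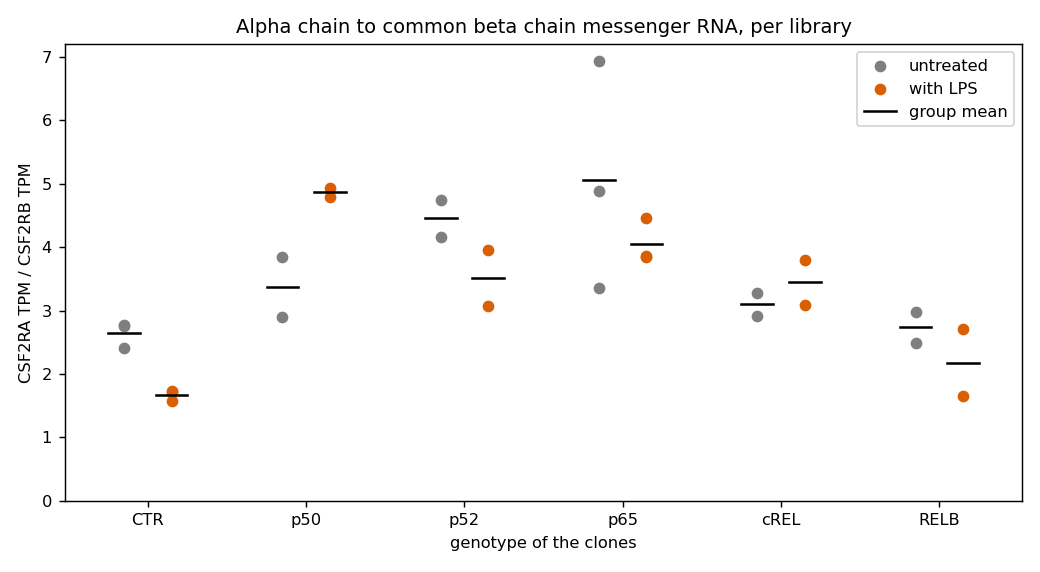
Ratio of CSF2RA to CSF2RB messenger RNA (TPM over TPM, vertical axis from 0) in each library by genotype, grey for untreated and orange for LPS, with black bars for group means. With LPS the CTR ratio is 1.67 ± 0.0815 (SD, n = 3) and the p50 ratio 4.87 ± 0.101 (SD, n = 2).

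IL3RA, the IL-3 alpha chain, stayed at low levels throughout. It went from 2.1, 3.0 and 1.3 CPM to 3.3, 4.4 and 3.3 CPM in the CTR clones with LPS. The 2 groups did not overlap in CPM but did in TPM (1.71 to 4.61 untreated and 2.79 to 4.55 with LPS), and the log2 fold of 0.79 ± 0.39 did not pass (edgeR adjusted p = 0.980). RELB clones went from 2.1 and 2.7 to 3.3 and 6.2 CPM, whereas cREL replicate 1 went from 4.8 to 1.6 CPM and cREL replicate 2 from 2.1 to 2.3 CPM. The difference in LPS response between cREL and CTR was −1.49 ± 0.61 (unadjusted p = 0.0246, edgeR adjusted p = 1). With an effective length offset the CTR effect was 0.41 and the RELB fold at rest turned from 0.18 to −0.31, so its direction there depended on the scaling.

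CSF3R, the G-CSF receptor, lay above CTR in most knockout libraries, on either treatment. Untreated CTR clones held 59.6, 46.6 and 68.7 CPM. The p50 clones held 86.2 and 84.9 CPM, the p52 clones 99.6 and 113.0 CPM, the p65 clones 79.3, 115.5 and 83.4 CPM, the cREL clones 92.9 and 57.0 CPM, and the RELB clones 68.5 and 140.8 CPM. Of the 11 knockout libraries 9 lay above the highest CTR library at rest and 10 with LPS, and none lay below the lowest. In TPM the count was 10 for both, and such counts were not made over all genes. The 2 RELB clones lay further apart than the 3 CTR clones.

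Log2 folds of CSF3R at rest were 1.13 ± 0.29 in p52 (SE, edgeR adjusted p = 0.340), 1.04 ± 0.29 in RELB (adjusted p = 0.193), 0.81 ± 0.29 in p50 (adjusted p = 0.684), 0.77 ± 0.24 in p65 (adjusted p = 0.220; 0.67 without p65 replicate 1) and 0.58 ± 0.29 in cREL (adjusted p = 0.883). The mean of the 5 was 0.87 ± 0.22 (adjusted p = 0.237), 1.04 without p65 replicate 1 (adjusted p = 0.0451) and 0.49 without CTR replicate 2. DESeq2 called CSF3R in p52 (adjusted p = 0.0481) and RELB (adjusted p = 0.0397). In batch B the differences were 0.89 for p50, 1.09 for p52, 0.99 for cREL and 1.59 for RELB, and in batch C 0.61 for p65. With LPS the folds, given with no test, were 0.65 to 1.20. The LPS effects on CSF3R ran from −0.10 in p52 to 0.12 in RELB.

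CSF1R, the M-CSF receptor, varied widely between clones of the same genotype. Untreated CTR clones held 36.3, 11.6 and 13.4 CPM, p50 clones 42.4 and 15.01 CPM, and p65 clones 13.8, 34.7 and 36.6 CPM. The p52 clones held 49.2 and 27.4 CPM, RELB clones 25.8 and 26.3 CPM, and cREL clones 13.5 and 8.5 CPM. CTR replicate 1 stood apart from the other two CTR clones, 3 of 11 knockout libraries exceeded it and 1 fell below the lowest CTR clone. The log2 fold at rest was 1.76 ± 0.44 in p52 (SE, edgeR adjusted p = 0.340) and −0.02 in cREL. DESeq2 called CSF1R in p52 (adjusted p = 0.0343). With an effective length offset the p52 fold fell to 1.10 and that of the 5 knockouts from 1.00 to 0.58. Without CTR replicate 2 the fold of the 5 was 0.59, that of p52 1.30 and that of cREL −0.49, and without p65 replicate 1 that of cREL was 0.25. Effective length of CSF1R ranged from 1582 to 3247 bases between libraries, and 2 small genes, RPL7P1 and RF00019, lie within it on the other strand.

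Across the 4 genes tested for LPS effects in 6 genotypes, edgeR called 0 of 24, with 0 at an unadjusted p under 0.05 and a lowest adjusted p of 0.980. The background was 0.408% of genes in CTR, 0.129% in RELB, 0.0268% in p65, 0.0215% in p52, 0.0161% in p50 and 0.0107% in cREL. For differences in LPS response from CTR, 0 of 20 were called and 1 had an unadjusted p under 0.05. The share of all genes called was 0.0161% in p65 and 0.0% in the other 4 knockouts. Of all 18624 genes, 291 to 953 per genotype had an unadjusted p under 0.05 for LPS, and 398 to 560 per knockout for the difference. DESeq2 and limma voom also called 0 in both families.

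The wider pathway was read from a list of 59 genes, of which 52 passed the count filter. Ligands were scarce. CSF2, which encodes GM-CSF, had 4 estimated counts in the 3 untreated CTR libraries and 84 in the 3 with LPS, and 0 and 47 in the 2 RELB clones. The other knockouts with LPS had few, with 7 in p65, 4 in cREL, 2 in p52 and 0 in p50, so CTR and RELB clones held most of its counts. CSF2 did not pass in CTR (edgeR adjusted p = 0.59). It did by limma voom (4.21, adjusted p = 0.00900) and by edgeR with no filter (4.33, adjusted p = 0.0284), and under no other alternative. With no filter it was also called for LPS in RELB, and lower in p50 against CTR with LPS. By limma voom it was called lower in p65 against CTR with LPS. CSF1, CSF3, IL3, IL5 and IL34 averaged at most 0.115 TPM and were not tested. Of the genes with the highest CPM in their class, IL2RG, the common gamma chain, averaged 161.2 TPM, the adaptor GRB2 147.5, the inhibitor PIAS1 114.8 and the cyclin CCND3 696.8 TPM.

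Among the 52 genes, those that LPS raised in CTR included CISH, PIM1 and PIM2, known STAT5 targets. STAT5 activity was not measured, and what raised these genes was not tested. The other targets listed, BCL2L1, MCL1, MYC, OSM, CCND2 and CCND3, did not pass in the reported fit, though DESeq2 called MCL1 and OSM. CISH, a feedback inhibitor of these receptors, went from 52.9, 85.3 and 47.2 CPM to 122.0, 181.4 and 139.3 CPM, which is 1.28 ± 0.19 on the log2 scale (SE; adjusted p = 9.5e-04 by edgeR). PIM2, a survival kinase, rose by 1.53 ± 0.21 (adjusted p = 5.7e-04) and PIM1 by 2.35 ± 0.41 (adjusted p = 0.00828). The list's median was 0.29, against 0.0003 for all genes tested. Of these 3, PIM2 kept its call with every clone left out in turn; CISH lost it without CTR replicate 3 (adjusted p = 0.0774), and PIM1 without CTR replicate 1 (0.0964) or 3 (0.299). In RELB the reported fit called CISH alone for LPS, at 1.37 ± 0.23 (adjusted p = 0.00758), from 66.5 and 81.4 to 172.1 and 209.9 CPM. This call was lost without either RELB clone and with no batch term (adjusted p = 0.0639). PIM1, PIM2 and OSM were also higher with LPS in both RELB clones, PIM2 going from 36.5 and 35.3 to 75.3 and 81.6 CPM. Beside CISH, DESeq2 called PIM2 (adjusted p = 0.00659) and OSM (adjusted p = 0.00111) in RELB. Limma voom called PIM2, OSM and MCL1 there as well as CISH. In batch C alone, where 2 CTR clones remain, PIM1 passed and CISH and PIM2 did not (adjusted p of 0.250 and 0.272). In p50, p52, p65 and cREL none of the 52 passed, and 0, 2, 0 and 0 had an unadjusted p under 0.05. Over all 18624 genes these numbers were 333, 365, 291 and 320.

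**Figure D4:**
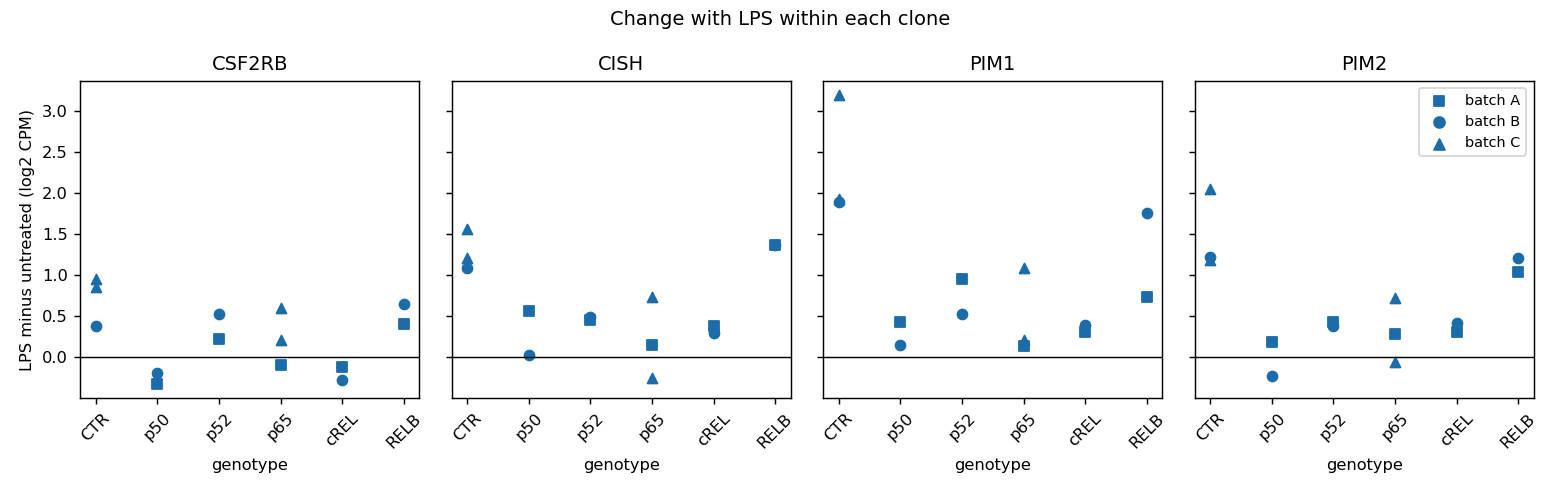
Change with LPS within each clone (log2 CPM with LPS minus untreated, vertical axis) for CSF2RB, CISH, PIM1 and PIM2, by genotype, with marker shape for batch. CSF2RB is above 0 in CTR, p52 and RELB clones and below 0 in p50 and cREL clones; CISH is highest in CTR and RELB, at 1.09 to 1.56.

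Against CTR with LPS, pathway genes passed in 3 of the knockouts. In p65, CISH (−1.21, adjusted p = 0.00177), PIM2 (−1.11, adjusted p = 0.0103), PIM1 (−2.06, adjusted p = 0.0164) and the cytokine gene OSM (−1.94, adjusted p = 0.0350) were lower by edgeR, while the kinase gene FES (0.93, adjusted p = 0.00577) and the progenitor factor gene MYB (0.90, adjusted p = 0.0478) were higher. In p50 PIM1 was lower (−2.83, adjusted p = 0.0387), and in cREL CISH was lower (−1.31, adjusted p = 0.0195). In p52 and RELB none of the 52 passed, with 17 and 3 at an unadjusted p under 0.05. Over all 18624 genes these numbers were 1839 and 1826. CISH and FES in p65 kept their calls with every clone left out, p65 replicate 1 included, and the other 6 calls were lost under at least 1 omission. Without p65 replicate 1 the p65 calls of PIM2, PIM1, OSM and MYB were lost (adjusted p of 0.0590, 0.0889, 0.163 and 0.271). In p52, where none had passed, 4 of the pathway genes then did, CISH (−1.36, adjusted p = 0.00761) and MYB (1.16, adjusted p = 0.0360) among them. CISH (−1.28, adjusted p = 0.0194) and MCL1 (−1.24, adjusted p = 0.0104) then passed in p50 too, and MCL1 (−1.41, adjusted p = 0.00282) in cREL. With no batch term FES (0.225), PIM2 (0.112), MYB (0.0933) and OSM (0.0626) in p65 and CISH in cREL (0.128) lost their calls, and in batch C alone none of the 6 p65 calls was kept. At rest, and for the difference in LPS response, none of the 52 passed in any knockout in the reported fit. Alternatives gave some calls. At rest DESeq2 called 2 in p65 and 1 each in p50, p52 and RELB. Without a filter edgeR called 4 in p65 and 2 in RELB, and without p65 replicate 1 it called 2 in p52. Some other omissions of a clone also gave calls at rest. For the difference, DESeq2 called PIM2 in p50, and edgeR without a filter called a smaller PIM1 response in every knockout. At an unadjusted p under 0.05 there were 3 to 8 per knockout at rest and 1 to 8 for the difference. Over all 18624 genes there were 1077 to 2398 and 398 to 560.

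Genes whose levels followed CSF2RB across the 28 libraries were named by Pearson's correlation of log2 CPM, among 9981 genes with a mean of at least 5 CPM. The closest were SLC2A3, a glucose transporter (r = 0.873), SQSTM1, an autophagy receptor (0.846), EAF1 (0.843), the chemokine gene CCL2 (0.836) and OPTN (0.825). SLC2A3 averaged 141 CPM in CTR and 191 CPM in RELB clones with LPS, and 39.3 to 49.4 CPM in the 4 other knockouts with LPS. By Spearman's correlation the closest 5 shared 0 with these, so the named genes depend on the measure; in TPM they shared 4. CSF3R was like MST1 (0.839) and NAA40 (0.785), CSF1R like EFR3B (0.816), MVP (0.810) and CFP (0.790), CSF2RA like NXF1 (0.738), VPS26C (0.711) and WBP2 (0.703), and IL3RA like PHLPP2 (0.636), MCL1 (0.620) and AC126755.2 (0.604). Among themselves the receptor genes went separate ways, with CSF1R and CSF3R the closest pair (0.57) and CSF2RB and CSF3R the most opposed (−0.35). In TPM the 3 named genes of CSF1R and of CSF2RA were all replaced, those of CSF3R all kept and 2 of the 3 of IL3RA kept. By Spearman's correlation CSF2RA kept 1 of 3 and the other three kept 2 of 3. These correlations pool treatments, clones and batches and carry no test.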

How the data were processed

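Paired-end polyadenylated RNA sequencing of U937 clones was quantified by the authors with Salmon 0.11.3 against GRCh38, with FastQC 0.11.7 also listed, per the submitters' processing notes. Which annotation and settings they used is not given in the sources used here. The authors deposited estimated counts per gene symbol, not scaled to a common total. They also deposited TPM values, scaled per library, and the effective length in bases of each gene in each library, which enters both. Reads that fit several transcripts are shared out in such estimates, which can affect CSF2RA and CSF3R.

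Groups, replicate numbers and batches came from the labels. All 56809 symbols matched GENCODE release 29. Rounded counts went into edgeR 4.0.16 (R 4.3.3): filterByExpr (minimum count 10, minimum total 15), TMM, a robust quasi-likelihood fit of 12 groups with batch as a term, 14 residual degrees of freedom, a coefficient of variation of 31.7%, and Benjamini-Hochberg adjustment over 18624 genes with a threshold of 0.05. The fit was tested on simulated data. Log CPM used a prior count of 2. The untreated and LPS libraries with 1 genotype and 1 replicate number were taken as a clone, because the labels number clones alike in both treatments; deviations of the 2 libraries correlated at 0.203 to 0.441 in all 14 clones. Alternatives were RLE size factors, no filter, no batch term, a length offset, clone as a block, untreated libraries or batch C alone, each clone left out, DESeq2 1.42.0, and limma 3.58.1 (voom, with a random clone effect of correlation 0.355).

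Receptor genes were always named; pathway genes were named where called, up to 6 per comparison, with up to 2 others of highest CPM per class; the 3 genes most correlated with each receptor gene (5 for CSF2RB) were named. The receptor set and the gene lists were chosen with earlier results of these data known. Spike-in controls were not analysed here, and some results for single genes that these rules would name are not reported here.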

Additional observations from a re-analysis of the deposited data

Results flagged for a closer look

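For CSF2RB and IL3RA there were 9 pairs of genotypes in which every clone of one moved up with LPS and every clone of the other moved down. The sizes below are differences between mean log2 CPM changes, and 8 of the 9 were not tested. With 2 or 3 clones per genotype such splits can arise by chance. For CSF2RB the mean change was 0.73 in CTR, 0.53 in RELB and 0.38 in p52, against −0.26 in p50 and −0.20 in cREL. CTR thus exceeded p50 by 0.987 and cREL by 0.927. RELB exceeded p50 by 0.788 and cREL by 0.727, and p52 exceeded p50 by 0.635 and cREL by 0.575. For IL3RA, RELB exceeded p52 by 1.11 and p50 exceeded p52 by 0.505, at levels of 20 to 110 estimated counts per library. The ninth pair was CTR and p52 for IL3RA, where the difference in response was tested and was −0.97 ± 0.60 (SE, edgeR adjusted p = 1). The CSF2RB values include the LPS libraries that chose the set.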

How the results depend on the processing

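With no batch term CSF2RB against CTR with LPS was −1.48 in p50, −1.06 in p52, −1.22 in cREL and −0.0514 in RELB, and it kept its sign under every alternative run. Receptor calls at rest numbered 0 in the reported fit, 6 with no filter, 5 with DESeq2 and 0 to 2 with clones left out (2 without p65 replicate 1). The untreated libraries alone gave 0. With each clone as a replicate block in place of batch (8 residual degrees of freedom), the CSF2RB effect of LPS in CTR was 0.73 and that in p50 −0.26, given with no test. None of the 4 receptor genes that were tested for LPS effects was called. The CTR calls of CISH (edgeR adjusted p = 1.9e-04), PIM2 and PIM1 were kept. The block raised the calls for LPS in CTR from 76 to 236 over all genes and in RELB from 24 to 81. Calls for LPS in CTR were 252 with no filter, 50 with no batch term, 155 with DESeq2, 196 with limma voom and 20 in batch C alone; for p65 against CTR with LPS they were 185, 992, 65, 650, 254 and 9 in the same order, the first being the reported fit. For p65 at rest they were 10, and 995 with no filter, 319 with DESeq2 and 400 without p65 replicate 2. An effective length offset turned 11 of 123 values to the other sign, and RLE size factors 0. These values were those of the receptor genes and of the pathway genes called in the reported fit. Depth limits IL3RA most.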
